A study of Mus musculus with 6 samples.

Results

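The vomeronasal type 2 receptors numbered 8 to 64 were taken as every gene of the deposited count table whose symbol was Vmn2r followed by a number in that range. The rule found 56 of the 38561 genes, Vmn2r8 to Vmn2r63, and matched no gene numbered 64. The libraries held RNA bound by an antibody to phosphorylated ribosomal protein S6, a mark that accumulates on ribosomes of active neurons, taken from vomeronasal organs of males of the outbred CD-1 mouse stock. In 3 libraries the males had been exposed to pups, and in the other 3 they had a control exposure that the labels do not describe. All were of bound RNA, with no library of unselected RNA beside them. Neuron activity and RNA abundance therefore cannot be told apart in a receptor's level. No allele, transgene or drug is given for either group, and neither is an age. Whether each library of a group is a separate animal or a pool is not said, so a p-value below reflects no more than library-to-library spread, part of which may be technical.

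Type 2 vomeronasal receptors (V2R) are G protein-coupled receptors with a long extracellular domain, in the same class as the metabotropic glutamate receptors. They are carried by sensory neurons in the basal layer of the vomeronasal epithelium, which signal through the G protein subunit encoded by Gnao1. Peptides and proteins in the secretions of other animals are their known ligands. A basal neuron is known to carry 1 or a few such receptors together with a co-receptor of family C, the receptors Vmn2r1 to Vmn2r7, so an individual receptor's RNA comes from a small share of the neurons. The labels name no ligand for any of the receptors described here. Vmn2r26, also called V2r1b, is a receptor whose neurons are known to respond to peptides of the kind presented by major histocompatibility proteins, and Vmn2r53 is known from published work on aggression between males.

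The 56 genes fell into 6 subfamilies when receptors with at least 80% identity in coding sequence were joined, and these followed both the numbers and the positions in the genome (GRCm38, GENCODE M21). Subfamily 1 was the 10 receptors Vmn2r8 to Vmn2r17 at chr5:108791843-109458459, and Vmn2r18 at chr5:151561190-151606021 stood alone as subfamily 2. Subfamily 3 was the 9 receptors Vmn2r19 to Vmn2r27 at chr6:123308333-124231856. Subfamily 4 held the 25 receptors Vmn2r28 to Vmn2r52, with Vmn2r28 apart from the other 24, which lay at chr7:7231327-10176573 and were all on the minus strand. Subfamily 5 was the 4 neighbours Vmn2r53 to Vmn2r56 at chr7:12562851-12735004, again all on the minus strand, and subfamily 6 the 7 receptors Vmn2r57 to Vmn2r63 at chr7:41395945-42933822. Identity within subfamilies was 82.6% to 99.8%, and no pair from different subfamilies exceeded 64.7%. Coding sequences were 2406 to 2691 bases long, and 54 of the 56 genes had 6 coding exons.

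A stretch of 90 coding bases shows how close the receptors are that the results turn on. Each stretch is the first window without gaps, within 1 exon of every gene of the set, whose mean identity is nearest to that of the whole coding sequences. All are written 5′ to 3′ on the coding strand from the GRCm38 transcripts of GENCODE M21, and capitals mark bases that differ from the first sequence of the set. In subfamily 5 the window was in exon 3 of Vmn2r53 (chr7:12601251-12601340), Vmn2r54 (chr7:12632525-12632614) and Vmn2r56 (chr7:12715829-12715918) and in exon 2 of Vmn2r55 (chr7:12670994-12671083), all on the minus strand.
Vmn2r53: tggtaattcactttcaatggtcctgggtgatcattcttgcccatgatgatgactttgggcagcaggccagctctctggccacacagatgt
Vmn2r54: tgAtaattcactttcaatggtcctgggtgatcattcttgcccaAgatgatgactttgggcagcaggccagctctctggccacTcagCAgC
Vmn2r55: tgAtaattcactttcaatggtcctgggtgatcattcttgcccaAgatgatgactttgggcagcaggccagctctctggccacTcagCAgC
Vmn2r56: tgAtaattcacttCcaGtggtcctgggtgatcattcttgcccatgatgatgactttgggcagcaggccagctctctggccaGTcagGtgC
Vmn2r54 and Vmn2r55 had the same 90 bases, with 6 differences from Vmn2r53, and Vmn2r56 had 7. Over the whole coding sequence Vmn2r54 and Vmn2r55 were 97.4% identical, and Vmn2r53 was 93.9% identical to Vmn2r54 and 94.3% to Vmn2r55.

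Subfamily 4 is shown because receptors close in sequence were counted unequally. In coding sequence Vmn2r47 and Vmn2r30 were 99.4% identical, while Vmn2r51 was at most 96.2% identical to another member. The window lay in exon 1, on the minus strand, of Vmn2r47 (chr7:9841179-9841268), Vmn2r30 (chr7:7337347-7337436), Vmn2r49 (chr7:9991993-9992082) and Vmn2r51 (chr7:10105513-10105602).
Vmn2r47: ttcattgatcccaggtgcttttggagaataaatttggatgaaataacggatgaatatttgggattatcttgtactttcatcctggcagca
Vmn2r30: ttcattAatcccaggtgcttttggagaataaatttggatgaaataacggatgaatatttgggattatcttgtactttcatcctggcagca
Vmn2r49: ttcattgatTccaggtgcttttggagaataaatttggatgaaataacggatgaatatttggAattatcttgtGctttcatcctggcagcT
Vmn2r51: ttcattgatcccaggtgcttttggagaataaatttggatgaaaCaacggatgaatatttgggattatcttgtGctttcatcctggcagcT
Vmn2r30 differed from Vmn2r47 at 1 base, Vmn2r51 at 3 and Vmn2r49 at 4. Vmn2r47 had no count in any library, whereas Vmn2r30 had 2319 counts over the 6 libraries, Vmn2r51 had 2815 and Vmn2r49 had 1120.

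In subfamily 3 the window was in exon 2 of Vmn2r21 (chr6:123531939-123532028, minus strand), Vmn2r20 (chr6:123416594-123416683, minus strand), Vmn2r25 (chr6:123851958-123852047, minus strand) and Vmn2r26 (chr6:124025899-124025988, plus strand), and the set is shown for a receptor without counts beside its near copy.
Vmn2r21: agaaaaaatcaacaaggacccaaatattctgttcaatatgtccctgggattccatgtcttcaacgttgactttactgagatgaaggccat
Vmn2r20: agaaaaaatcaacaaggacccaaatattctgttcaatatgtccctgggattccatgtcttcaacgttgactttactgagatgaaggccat
Vmn2r25: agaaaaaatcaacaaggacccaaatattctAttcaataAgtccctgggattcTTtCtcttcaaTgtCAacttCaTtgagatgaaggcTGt
Vmn2r26: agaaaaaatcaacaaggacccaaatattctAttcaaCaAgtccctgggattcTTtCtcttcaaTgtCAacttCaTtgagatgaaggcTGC
Vmn2r20 matched Vmn2r21 at every base, Vmn2r25 differed at 12 and Vmn2r26 at 14. The set from subfamily 1 holds the 2 receptors of chromosome 5 whose groups of libraries did not overlap (Vmn2r9 and Vmn2r10) and the 2 of its members with the most counts. It lay in exon 3 of Vmn2r9 (chr5:108848133-108848222, minus strand), Vmn2r8 (chr5:108802332-108802421, minus strand), Vmn2r10 (chr5:109002529-109002618, minus strand) and Vmn2r17 (chr5:109427826-109427915, plus strand).
Vmn2r9: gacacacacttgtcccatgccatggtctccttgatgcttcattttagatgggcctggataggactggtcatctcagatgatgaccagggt
Vmn2r8: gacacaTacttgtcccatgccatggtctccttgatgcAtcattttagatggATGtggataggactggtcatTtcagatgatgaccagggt
Vmn2r10: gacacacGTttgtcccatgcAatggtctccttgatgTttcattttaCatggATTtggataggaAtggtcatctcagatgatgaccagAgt
Vmn2r17: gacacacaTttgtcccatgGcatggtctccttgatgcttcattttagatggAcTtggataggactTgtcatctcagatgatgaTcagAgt
Vmn2r8 differed from Vmn2r9 at 6 bases, Vmn2r17 at 7 and Vmn2r10 at 10, more than in the window of subfamily 4.

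How much of a receptor's sequence is its own bears on every count below, because the way the counting treated reads that fit several genes is not given in the sources used here. The share of a receptor's 50-base words found in the transcripts of other genes too ran from 3.3% to 100%, with a median of 35.9%. Of the 27 receptors with less than 30% shared words, none was without a count, and their median was 370 counts over all libraries. The 12 receptors with 30% to under 75% shared words had a median of 397.5 counts, and the 17 with 75% or more had a median of 30. All 4 receptors without a count were in the last set, namely Vmn2r21 (99.0% shared words, most with Vmn2r20), Vmn2r35 (97.6%, most with a receptor pseudogene), Vmn2r46 (97.8%) and Vmn2r47 (100%). Vmn2r40 and Vmn2r41, whose coding sequences were 99.8% identical, had 6 and 2 counts. A low count in such a receptor cannot be told apart from reads that were dropped or given to its copy, and the counts of receptors with near copies are uncertain. Sharing did not fix the level, since Vmn2r49, with 85.7% shared words, had 1120 counts.

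**Figure D1:**
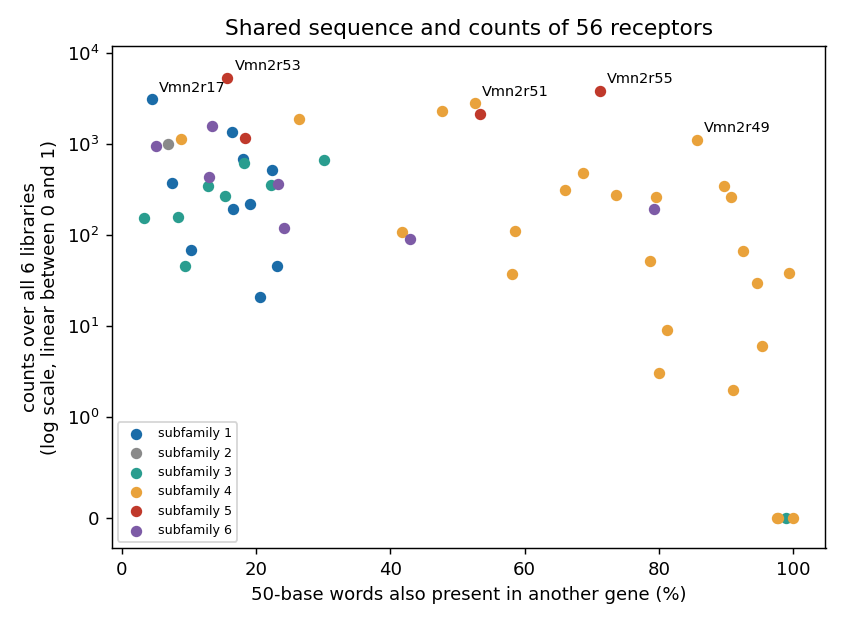
Counts of each of the 56 receptors over all 6 libraries (vertical axis, log scale, linear between 0 and 1) against the percentage of its 50-base words that occur in another gene (horizontal axis), with points coloured by subfamily. The 4 receptors at 0 counts lie at 97.6% to 100% shared words.

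Total counts were 10590716 to 11240065 in the control libraries and 18199476 to 20871266 in the pup libraries, so depth was separated by group. The receptors described here held 2564 to 6541 counts in a control library and 3768 to 13885 in a pup library. A count of 3, taken as the floor of detection, corresponded to 0.106 to 0.469 CPM (counts as a share of the library's total, scaled by the TMM method in all that follows) and covers counting error only. Among basal neuron genes chosen to check the tissue, all 6 had counts in the table, and their summed level was 774, 584 and 593 CPM in control replicates 1 to 3 and 427, 490 and 587 CPM in pup replicates 1 to 3. Most of this basal neuron sum was Gng8 and H2-M10.3, with means of 331 and 212 CPM in control and 255 and 100.4 CPM in pup libraries. Of the 6 edgeR log2 fold changes 3 were positive and 3 negative, and the sum overlapped between the groups. Marker sums of some other cell types lay apart between the groups. Those of apical vomeronasal neurons, mature vomeronasal neurons, main olfactory neurons, progenitors, nasal glands, glia, and endothelium and muscle overlapped. The summed level of 4 sustentacular cell markers was 3627 to 4315 CPM in control libraries and 1415 to 2158 CPM in pup libraries, and that of 4 red blood cell markers was 205 to 591 and 52.6 to 168 CPM. For 4 macrophage markers it was 72.5 to 80.4 and 35.4 to 58.6 CPM, and for 4 markers of immature neurons 293 to 460 and 200.1 to 291 CPM. None of these 4 sums overlapped between the groups, narrowly so for immature neurons. Of the macrophage markers only Cd68 did not overlap by itself, and Csf1r had an edgeR log2 fold change of 0.14. Of the immature neuron markers Gap43 and Stmn2 did not overlap, Tubb3 did, and Dcx was at 0.43. Over all genes tested, 9.60% had every pup library below every control library. None of the markers in these 4 sums was without counts, and their part in the receptor values was not tested. Nor can fewer cells of a type and less RNA per cell be told apart in such tissue lysates.

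None of the 39 receptors tested passed the main edgeR test between pup and control exposure. The largest difference among them was in Vmn2r53, whose mean was 5.05-fold lower in the pup libraries. In edgeR's quasi-likelihood test 0 of the 39 receptors with enough counts to be tested were higher and 0 were lower at an adjusted p under 0.05, as was the case for 0% of the 15498 genes tested in either direction. The smallest adjusted p of a receptor was 0.412. At an unadjusted p under 0.05 in edgeR, 0 receptors were higher, against a background of 6.31% of all genes, and 2 were lower, Vmn2r53 and Vmn2r51, against a background of 4.67%. DESeq2 called 0 receptors higher and 1 lower, Vmn2r53, at an adjusted p under 0.05, where it called 0.406% of 12301 genes higher and 0.626% lower. It gave no adjusted p to some of the 39, among them Vmn2r9, Vmn2r10 and Vmn2r62, so these could not be called by DESeq2. With limma-voom 0 receptors passed an adjusted p under 0.05, against 0.00645% of genes higher and 0.0452% lower. Before adjustment limma-voom gave a p under 0.05 to 0 receptors higher, against 5.10% of genes, and 3 lower, against 5.43%, the additional one being Vmn2r54. When edgeR was run without a filter on low counts, 0 receptors were higher, against 0.255% of 23900 genes, and 1, again Vmn2r53, was lower at an adjusted p under 0.05, against 0.247%. All these tests used the same 6 libraries, so they are not independent of each other.

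Among the tested receptors, 3 had pup libraries that all lay above the control libraries, Vmn2r9, Vmn2r10 and Vmn2r62. This was 7.69% of the 39, against 10.15% of all genes tested. In 2 receptors, Vmn2r53 and Vmn2r51, all pup libraries lay below the control libraries, which was 5.13% of the 39 against 9.60% of all genes. The remaining 34 overlapped between the groups. The log2 fold change of pup over control exposure was positive in 25 and negative in 14, so that 64.1% were positive beside 51.46% of all genes, and the median was 0.23 beside 0.030 over all genes. This split depended on scaling, with 34 positive and 5 negative when libraries were scaled by their totals alone, a setting that moved the median of all genes to 0.31 and that of the receptors to 0.57. It also rested on single libraries. The receptors' median was 0.49, with 33 positive and 7 negative, when pup replicate 1 was left out. It was 0.0027, with 19 and 18, when pup replicate 2 was left out, and 0.037, with 20 and 18, when pup replicate 3 was left out. The log2 fold change exceeded 1 in 5 receptors and was under -1 in 2, and the standard errors of 0.37 to 1.25, with a median of 0.70, show how coarse the comparison was for single receptors.

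**Figure D2:**
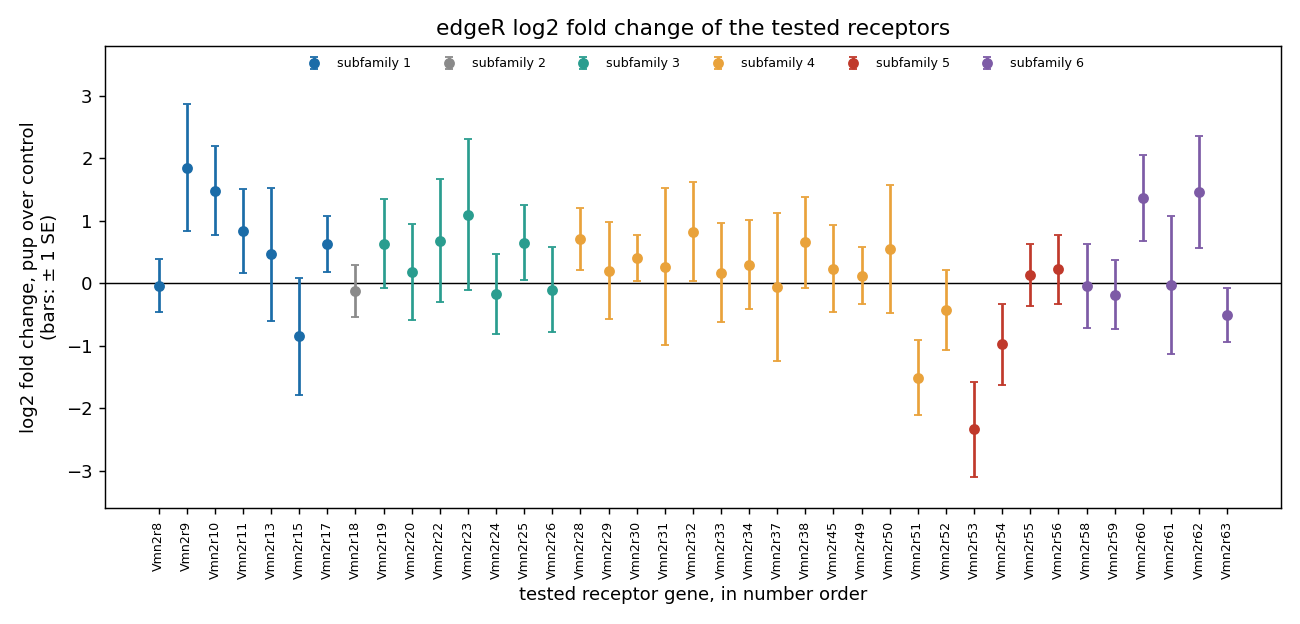
Log2 fold change of pup over control exposure (vertical axis, points, with bars of ± 1 SE from edgeR) for the 39 tested receptors in number order (horizontal axis), coloured by subfamily. Vmn2r53 and Vmn2r51 lie lowest, at -2.34 and -1.51, and 25 of the 39 points lie above 0.

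**Figure D3:**
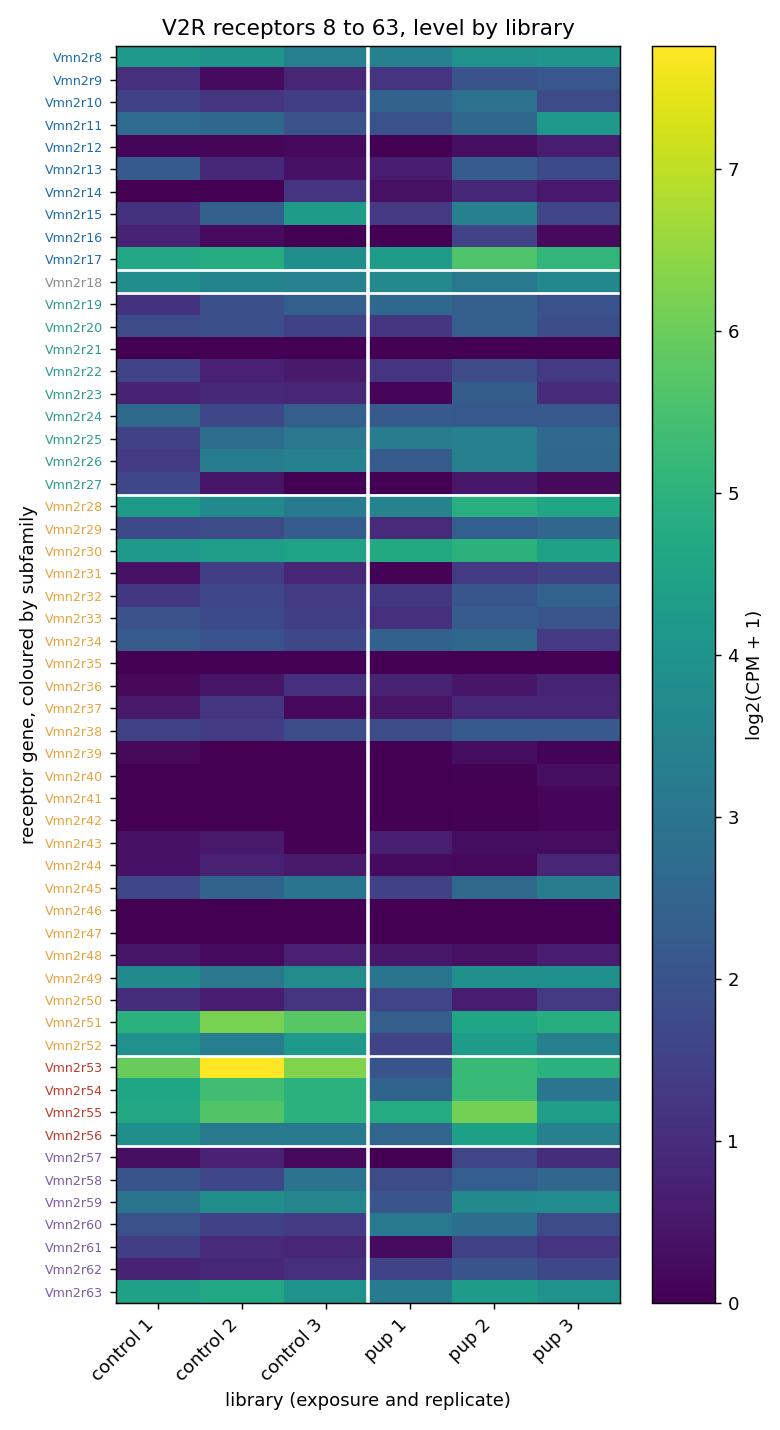
Level of each receptor (vertical axis, names coloured by subfamily) in each library (horizontal axis, 3 control then 3 pup), as log2 of CPM plus 1. Vmn2r53 has the highest CPM in each of the 3 control libraries, and Vmn2r21, Vmn2r35, Vmn2r46 and Vmn2r47 are at 0 in all 6.

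Vmn2r53 (ENSMUSG00000096002, chr7:12562851-12608788, minus strand), the first member of subfamily 5, had the most counts of all 56 receptors, 5376 over the 6 libraries. Its level was 60.8, 216 and 76.7 CPM in control replicates 1 to 3 and 3.00, 37.0 and 29.9 CPM in pup replicates 1 to 3. Every pup library lay below every control library, with control replicate 2 far above the rest and pup replicate 1 far below. The means were 118 ± 85.2 CPM for control and 23.3 ± 17.9 CPM for pup libraries (SD, n = 3 each), which made the pup mean 5.05-fold lower. In edgeR the log2 fold change was -2.34 with a standard error of 0.76, an unadjusted p of 0.00972 and an adjusted p of 0.412, so the call did not pass over all genes. DESeq2 gave -2.37 with an adjusted p of 0.0496, limma-voom gave -2.69 with an adjusted p of 0.439, and edgeR without a filter gave -2.30 with an adjusted p of 0.00021. The unfiltered fit had a standard error of 0.44 beside 0.76 with the filter. Its lower adjusted p thus did not come with a larger difference. Its edgeR unadjusted p was 2.0e-07, beside 0.00972 with the filter. How far the smaller standard error accounts for this was not tested. Leaving out control exposure replicate 2 moved the edgeR log2 fold change to -1.55 with an adjusted p of 0.646, and no other left-out library brought it above that value. Scaled to the summed counts of 4 genes of basal neurons (Gnao1, Gng8, Robo2 and Tfap2e) in place of TMM, the log2 fold change was -2.26. This scaling was chosen after seeing the data and rested mostly on Gng8. Gng8 had means of 331 CPM in control and 255 CPM in pup libraries, against 58.0 and 86.4 CPM for Gnao1, the next. The edgeR log2 fold changes of the 4 ran both ways, at 0.58 for Gnao1, 0.82 for Robo2, -0.38 for Gng8 and -0.39 for Tfap2e. Of the words of Vmn2r53 15.7% were shared with other genes, a smaller share than for Vmn2r54 (53.3%) and Vmn2r55 (71.2%). The number of shared words was larger, 3472 of 22094, against 2243 of 4209 for Vmn2r54 and 1708 of 2399 for Vmn2r55. Whether reads of other genes are among its counts was not tested.

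The neighbours of Vmn2r53, which are its closest relatives, gave smaller log2 fold changes, and the difference from Vmn2r53 was not tested. Vmn2r54 (ENSMUSG00000096593, chr7:12613839-12640319, minus strand) measured 22.7, 40.3 and 30.3 CPM in the control libraries and 4.66, 35.4 and 7.27 CPM in the pup libraries. Pup replicates 1 and 3 were below all controls, but pup replicate 2 was above control replicates 1 and 3, so the groups overlapped. The log2 fold change was -0.98 with a standard error of 0.65 and an edgeR adjusted p of 0.577, and leaving out pup exposure replicate 2 moved it to -2.37. Vmn2r55 (ENSMUSG00000091045, chr7:12651706-12685003, minus strand) measured 24.6, 49.7 and 30.0 CPM in the control libraries and 26.4, 69.0 and 18.8 CPM in the pup libraries. Its highest and lowest libraries were both pup libraries, and the log2 fold change of 0.13 with a standard error of 0.50 (edgeR adjusted p 0.934) changed sign between analyses. Vmn2r56 (chr7:12688721-12735004, minus strand), for which edgeR gave 0.23 with a standard error of 0.55, was at 7.80 to 13.5 CPM in control libraries and 4.72 to 20.1 CPM in pup libraries.

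A ratio of 2 receptors within a library does not depend on how libraries are scaled. Counts of Vmn2r53 over those of Vmn2r55 were 2.47, 4.34 and 2.56 in control replicates 1 to 3 and 0.114, 0.536 and 1.59 in pup replicates 1 to 3. The groups did not overlap, and the ratio was above 1 in every control library and in pup replicate 3. Vmn2r54 over Vmn2r55 was 0.924, 0.810 and 1.01 in the control libraries and 0.177, 0.513 and 0.387 in the pup libraries, again without overlap. Vmn2r53 over Vmn2r54 did overlap, at 2.67, 5.36 and 2.53 against 0.644, 1.05 and 4.11. These ratios were chosen after the values were seen, so no test is given.

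**Figure D4:**
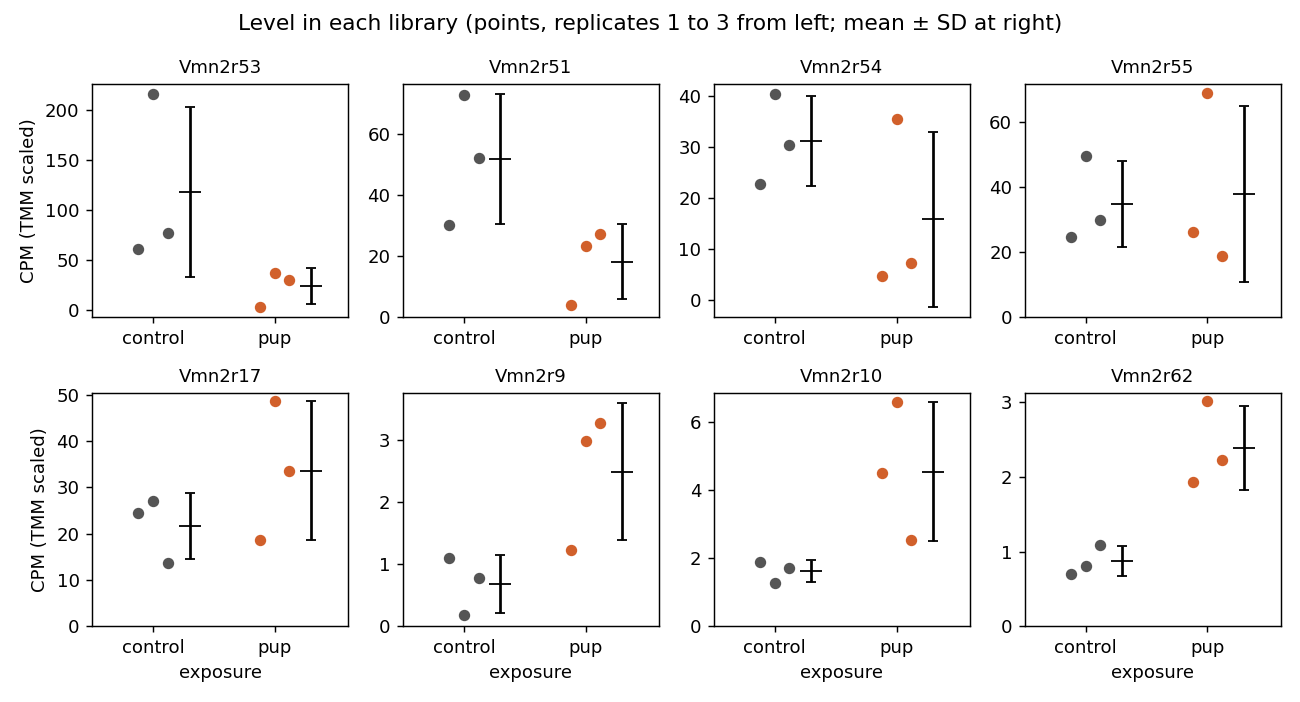
Level of named receptors in each library (points, replicates 1 to 3 from left in each exposure, CPM scaled by TMM on the vertical axis, exposure on the horizontal axis), with the mean ± SD at the right of each group. For Vmn2r53 the 3 pup libraries lie between 3.00 and 37.0 CPM, all below the lowest control library at 60.8 CPM.

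Vmn2r51 (ENSMUSG00000058685, chr7:10087198-10105741, minus strand), of subfamily 4, was the other receptor with lower pup libraries. Its level was 30.3, 72.9 and 52.04 CPM in control replicates 1 to 3 and 4.13, 23.2 and 27.2 CPM in pup replicates 1 to 3. As for Vmn2r53, control replicate 2 was highest and pup replicate 1 lowest, and the groups did not overlap. The means were 51.8 ± 21.3 and 18.2 ± 12.3 CPM (SD, n = 3 each), a 2.85-fold lower mean after pup exposure. The edgeR log2 fold change was -1.51 with a standard error of 0.60, an unadjusted p of 0.0270 and an adjusted p of 0.427, and -1.90 to -1.04 when each library was left out in turn. Without control exposure replicate 2 neither Vmn2r51, at -1.17, nor Vmn2r53 had an unadjusted p under 0.05. About as much of Vmn2r51 was shared with other genes as of Vmn2r54, 52.6% of its words, and whether reads of its relatives are among its counts was not tested. Vmn2r51 over its neighbour Vmn2r49 was 2.50, 9.80 and 4.22 in the control libraries and 0.583, 1.67 and 1.97 in the pup libraries, without overlap, and Vmn2r51 over Vmn2r52 was 2.14, 8.05 and 3.08 against 2.03, 1.27 and 2.88, with overlap.

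The rest of subfamily 4 was spread around or above 0. Of the subfamily's 25 receptors, Vmn2r51 among them, 14 were tested, with 11 positive and 3 negative log2 fold changes and a median of 0.25. Vmn2r30 (ENSMUSG00000070847, chr7:7310437-7337609) had the smallest standard error of the 39, and was at 17.3, 19.2 and 21.4 CPM in the control libraries and 25.1, 30.5 and 20.6 CPM in the pup libraries, with a log2 fold change of 0.40, that standard error of 0.37 and an edgeR adjusted p of 0.685. Pup replicate 3 lay below the highest control library, so its groups overlapped. Vmn2r28 (ENSMUSG00000066820, chr7:5477255-5493956) measured 17.9, 11.7 and 7.97 CPM and then 9.97, 29.0 and 22.9 CPM, overlapping through pup replicate 1, with a log2 fold change of 0.71 and a standard error of 0.49 (edgeR adjusted p 0.589). Vmn2r52 (ENSMUSG00000091930, chr7:10153206-10176573), the last of the group and the one next to Vmn2r51, measured 14.2, 9.06 and 16.9 CPM and then 2.04, 18.2 and 9.44 CPM. Its log2 fold change of -0.43 with a standard error of 0.64 (edgeR adjusted p 0.819) became 0.028 when libraries were scaled by totals alone. The 11 untested receptors of this group included the 3 in it without a count.

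In subfamily 1 the receptors on chromosome 5 had a median log2 fold change of 0.63 over the 7 tested, 5 positive and 2 negative. Vmn2r10 (ENSMUSG00000067010, chr5:108990063-109006527, minus strand) measured 1.88, 1.26 and 1.72 CPM in the control libraries and 4.50, 6.59 and 2.52 CPM in the pup libraries. All pup libraries were above all control libraries, and the mean was 2.80-fold higher, at 4.54 ± 2.03 against 1.62 ± 0.325 CPM (SD, n = 3 each). The log2 fold change was 1.49 with a standard error of 0.72, an edgeR unadjusted p of 0.0605 and an adjusted p of 0.466. Vmn2r9 (ENSMUSG00000091624, chr5:108835273-108852601, minus strand) measured 1.10, 0.179 and 0.781 CPM and then 1.23, 2.98 and 3.26 CPM. These pup libraries also lay above the controls, narrowly so for pup replicate 1, and control replicate 2 rested on 2 counts, under the floor of 3. The log2 fold change was 1.85 with a standard error of 1.01 and an edgeR adjusted p of 0.512. Vmn2r17 (ENSMUSG00000091879, chr5:109419688-109458459, plus strand) had the highest level per kb of the subfamily, and measured 24.4, 27.0 and 13.6 CPM in the control libraries and 18.6, 48.7 and 33.6 CPM in the pup libraries. It overlapped between the groups, with a log2 fold change of 0.63, a standard error of 0.44 and an edgeR adjusted p of 0.593. Vmn2r8 (ENSMUSG00000090961, chr5:108791843-108808850) measured 17.2, 15.1 and 9.22 CPM against 9.65, 14.9 and 16.0 CPM, with a log2 fold change of -0.035 and a standard error of 0.43. The sign for Vmn2r8 turned in several alternatives.

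Subfamily 3 had a median log2 fold change of 0.64 over 7 tested receptors, 5 positive and 2 negative, and no receptor without overlap. Vmn2r26 (ENSMUSG00000096630, chr6:124024568-124065806, plus strand), the V2r1b receptor, measured 1.57, 8.52 and 9.69 CPM in the control libraries and 3.70, 9.42 and 5.19 CPM in the pup libraries. Control replicate 1 was lowest of all and control replicate 3 highest, so the pup libraries lay inside the range of the controls. The edgeR log2 fold change was -0.10 with a standard error of 0.68. Vmn2r18, alone in subfamily 2, gave -0.12 with a standard error of 0.42. In subfamily 6 the 6 tested receptors had a median of -0.034, with 2 positive and 4 negative. Vmn2r62 (ENSMUSG00000091926, chr7:42764055-42793525, minus strand) measured 0.706, 0.807 and 1.09 CPM and then 1.93, 3.01 and 2.23 CPM, without overlap and with a 2.75-fold higher mean. Its log2 fold change was 1.46 with a standard error of 0.89 and an edgeR adjusted p of 0.544, and 79.3% of its words were shared, most of them with the predicted gene Gm9268. Vmn2r63 (ENSMUSG00000090751, chr7:42896711-42933822), the highest per kb of the subfamily, measured 20.6, 23.9 and 14.5 CPM against 8.36, 18.4 and 14.9 CPM, overlapping, with a log2 fold change of -0.50 and a standard error of 0.43. The 25 tested receptors outside the naming rule, Vmn2r18 and Vmn2r56 among them, gave log2 fold changes of -0.84 to 1.37, the highest being Vmn2r60, and none had an unadjusted p under 0.0702 in edgeR.

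Of the 17 receptors not tested, 13 had counts, at most 91 over the 6 libraries. Vmn2r57 had 91 counts, of which 59 came from pup replicate 2, Vmn2r16 had 69, of which 55 came from pup replicate 2, and Vmn2r36 had 52, spread over all libraries. These values were too few to compare groups. The 39 tested receptors held 98.8% of the counts of all 56, and counts given over the tested receptors describe only those.

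Levels compare between receptors only per length, here per kb of annotated exons. By that measure Vmn2r55 was highest, at 14.7 CPM per kb over all libraries, followed by Vmn2r51 at 13.2 and Vmn2r54 at 5.50. The order of the first pair turned between the exposures, with Vmn2r51 at 19.6 and Vmn2r55 at 14.01 CPM per kb in control libraries and 6.88 and 15.3 in pup libraries. Vmn2r53 came to 3.18 CPM per kb in spite of the most counts, because its annotated exons span 22143 bases where those of Vmn2r55 span 2482. Annotated length differed far more between receptors than coding length did, and how much of the annotated exons is transcribed was not tested.

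The make-up of the receptors' counts also differed between the exposures. Vmn2r53 ranked first and Vmn2r51 second in each of the 3 control libraries, with 17.2%, 36.8% and 19.1% of all counts of the 56 receptors for Vmn2r53 and 8.59%, 12.4% and 13.0% for Vmn2r51. In the pup libraries Vmn2r53 held 1.49%, 7.53% and 8.73% and Vmn2r51 2.04%, 4.71% and 7.96%. First place went to Vmn2r55 in pup replicates 1 and 2, with 13.1% and 14.04%, and to Vmn2r17 in pup replicate 3, with 9.83%. Vmn2r17 held 6.90%, 4.60% and 3.39% of the counts in the control libraries and 9.18%, 9.90% and 9.83% in the pup libraries, without overlap. Other receptors also held higher shares in the pup libraries without overlap, among them Vmn2r9, Vmn2r10, Vmn2r30 and Vmn2r62. In CPM Vmn2r17 and Vmn2r30 overlapped between the groups. Shares of a total depend on each other, so a lower Vmn2r53 alone raises the others. The summed level of all 56 receptors was 353, 586 and 401 CPM in the control libraries and 202, 492 and 342 CPM in the pup libraries, and the groups overlapped. Pup replicate 2 was the highest library for 18 of the 39 tested receptors and pup replicate 1 the lowest for 17, so the pup libraries differed strongly among themselves.

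Relative to all V2R genes, the receptors numbered 8 to 63 took a smaller share after pup exposure. They held 26.0%, 31.8% and 32.5% of V2R counts in control replicates 1 to 3 and 15.03%, 24.6% and 17.3% in pup replicates 1 to 3. No pup library reached the lowest control library, and the means were 30.1% ± 3.55 and 19.0% ± 5.0 (SD, n = 3 each), a difference of -11.1 percentage points. With the family C co-receptors taken out of the total the means were 39.9% ± 6.20 and 21.6% ± 5.96 (SD, n = 3 each), a difference of -18.3 points. Much of the denominator was 1 other receptor, Vmn2r88, which held 3.04% to 4.92% of V2R counts in control and 22.2% to 35.4% in pup libraries. Without Vmn2r88 the receptors held 27.4%, 32.8% and 34.2% against 22.4%, 31.6% and 26.8%, the groups overlapped, and the difference was -4.54 percentage points. Of all V2R counts, subfamily 5 held 8.97%, 17.0% and 11.7% in control libraries and 2.88%, 8.07% and 3.30% in pup libraries. Subfamily 4 held 8.06%, 7.69% and 10.8% against 4.81%, 7.20% and 6.42%, and subfamily 6 held 2.67%, 2.37% and 2.88% against 1.79%, 2.35% and 1.98%. In these 3 subfamilies the pup libraries lay below the control libraries, while subfamilies 1, 2 and 3 overlapped between the groups. With Vmn2r88 out of the total, a setting chosen after seeing the data, the 3 separations were lost. Subfamily 5 then held 9.43%, 17.5% and 12.4% against 4.29%, 10.38% and 5.10%, subfamily 4 held 7.93% to 11.4% against 7.17% to 9.93%, and subfamily 6 held 2.44% to 3.02% against 2.66% to 3.07%. Subfamily 1 was then the one without overlap, at 4.31%, 3.02% and 4.12% against 4.33%, 6.07% and 6.06%, narrowly so for pup replicate 1. A sum over receptors was given no test.

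**Figure D5:**
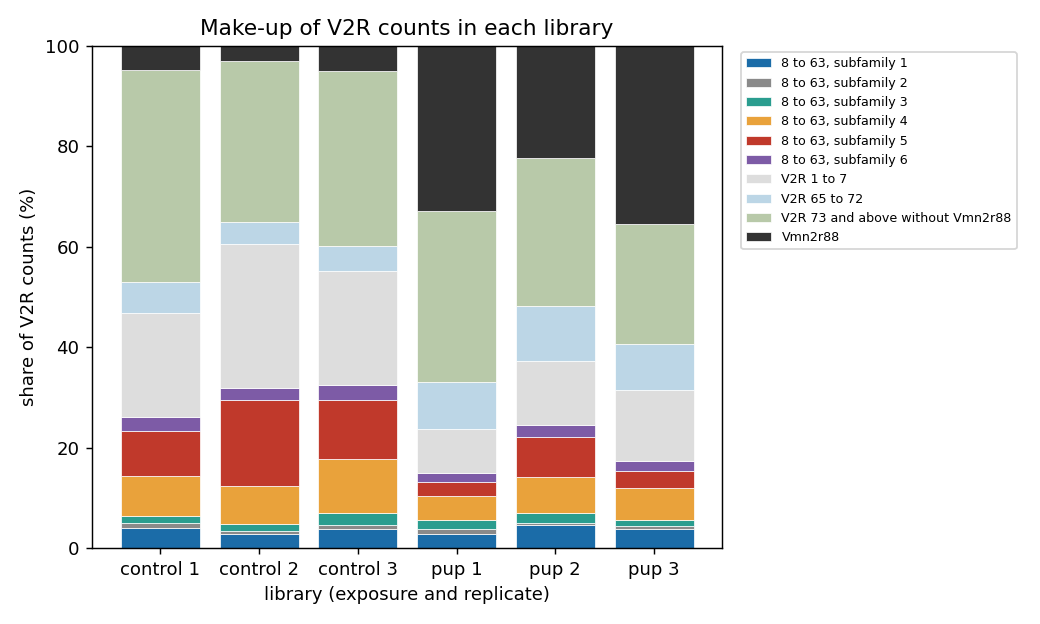
Share of all V2R counts (vertical axis, %) held in each library (horizontal axis, 3 control then 3 pup) by the 6 subfamilies, by the other V2R genes and by Vmn2r88. The receptors numbered 8 to 63 held 26.0% to 32.5% in control libraries and 15.03% to 24.6% in pup libraries, and Vmn2r88 3.04% to 4.92% and 22.2% to 35.4%.

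Other V2R genes and basal neuron genes were compared over the same libraries, where 6.31% of all genes were higher and 4.67% lower before adjustment (edgeR p under 0.05) and 51.46% had a log2 fold change above 0. All 7 family C co-receptors were tested, and edgeR gave an unadjusted p under 0.05 to 2 higher and 2 lower ones, none at an adjusted p under 0.05, with a median log2 fold change of 0.39. Among the 8 receptors numbered 65 to 72, edgeR gave an unadjusted p under 0.05 to 1 higher and 0 lower ones, with a median of 0.14. Of the 51 numbered 73 and above, 43 were tested, 5 were higher and 1 lower at that level, and the log2 fold change was above 0 in 33 and below 0 in 10, with a median of 0.36. The receptors numbered 8 to 63 had 0 higher and 2 lower, but the difference between these sets was not tested. Of 16 listed signalling and identity genes of basal neurons 15 were matched in the table (Trpc2 was not), 14 were tested, 0 passed an adjusted p under 0.05 in edgeR, and an unadjusted p under 0.05 went to 3 higher ones (Ano2, Slc8a1 and Bcl11b) and 1 lower one (Kcnn3). Kcnn3, a calcium-activated potassium channel, was at 26.0, 65.9 and 15.6 CPM in the control libraries and 0.697, 2.23 and 7.52 CPM in the pup libraries. Its edgeR log2 fold change was -3.37 with a standard error of 0.80 and an adjusted p of 0.375. H2-Mv genes, class I-like molecules carried by many basal neurons, had a median log2 fold change of -1.08 over 9 tested, with an unadjusted p under 0.05 in 0 higher and 3 lower ones and none at an adjusted p under 0.05 in edgeR.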

How the data were processed

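The 6 libraries, 3 per exposure, were grouped by their labelled titles. The authors deposited raw read counts, whole numbers for each Ensembl gene in each library. The build was GRCm38 per the submitters' processing notes, and what aligned and counted the reads, with which annotation and strand setting, and how reads that fit several genes were treated, was not given in the sources used here. Symbols came from GENCODE M21, in which 36723 of 38561 gene IDs matched.

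Groups were compared by the quasi-likelihood test of edgeR 4.0.16 (R 4.3.3) on the deposited counts over all genes, with an intercept and the group, filterByExpr (minimum count 10, minimum total 15), TMM scaling (factors 0.605 to 1.39) and Benjamini-Hochberg adjustment over 15498 genes with a threshold of 0.05. The common BCV (biological coefficient of variation) came to 0.535, and each standard error was the log2 fold change over the root of its F value. DESeq2 1.42.0, limma-voom (limma 3.58.1), other scalings and filters, a replicate block and leaving out each library were alternatives. Of these steps only the main edgeR fit was run on simulated counts.

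Coding sequences were aligned with MAFFT 7.526. Words of 50 bases were matched on both strands between a receptor's longest transcript and the transcripts of other genes.

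Receptors named in the text were the 10 tested with the highest mean CPM (not per length), those with an unadjusted p under 0.05, those whose groups did not overlap, Vmn2r26 and Vmn2r53, those called by DESeq2 or limma-voom, and the 3 untested with the most counts. Vmn2r18, Vmn2r49, Vmn2r56, Vmn2r60 and the receptors shown for shared sequence fall outside this rule and were chosen after their values were seen. The receptors, lists and tests were chosen with earlier results of these data known. Replicate numbers were not treated as pairs in the main test, since the labels do not say that they are.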

Additional observations from a re-analysis of the deposited data

How the results depend on the processing

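Depth differed by group, and a receptor's log2 fold change carried a standard error of 0.37 to 1.25, which limits the size of difference that could be resolved. No receptor passed an adjusted p under 0.05 in either direction under the other scalings, the stricter filter, the block, limma-voom or with any library left out. The number lower was 1 without a filter and 1 with DESeq2, in both cases Vmn2r53, with log2 fold changes of -2.30 and -2.37. Without a filter its standard error was 0.44, beside 0.76 in the main fit. At an unadjusted p under 0.05, the number higher was 1 with library totals only and 1 with DESeq2 (both Vmn2r10), and 0 to 2 with a library left out, the 2 (Vmn2r9 and Vmn2r28) when this was pup replicate 1 and 1 (Vmn2r60) when it was pup replicate 3. The number lower was 1 with library totals only and 0 to 3 with a library left out, 0 of them without control exposure replicate 2. The receptors' median was 0.57 with library totals only and 0.0027 to 0.49 with a library left out. Their share of V2R counts differed by -18.3 percentage points without the family C genes in the total, by -4.54 without Vmn2r88, and by -14.0 to -9.18 with a library left out. Scaling to 4 basal neuron genes and the total without Vmn2r88 were chosen after seeing the data.

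Of the 14 tested receptors named by the rule 4 changed sign in some alternative, and the cause was not tested. Vmn2r55 was at -0.035 with limma-voom and at -0.60 to 0.50 with a library left out. Vmn2r8 was at 0.17 with library totals only, 0.022 scaled to basal neuron genes and -0.28 to 0.16 with a library left out. Vmn2r52 was at 0.028 with library totals only and -1.21 to 0.055 with a library left out. Vmn2r26 was at 0.40 with library totals only, 0.13 scaled to basal neuron genes, 0.41 with limma-voom and -0.57 to 0.25 with a library left out. Receptors outside the rule turned too, among them Vmn2r15, at -0.84 with all libraries and -2.11 to 0.67 with a library left out, and Vmn2r11, at 0.84 and -0.19 to 1.25.

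The labels do not say whether the replicate numbers pair the libraries. Deviations of same-numbered libraries correlated at -0.035, 0.18 and 0.075, and 3 of 6 libraries correlated best with their own number. With 3 libraries per group these values cannot settle whether the libraries were paired. With the replicate number as a block, an adjusted p under 0.05 went to 0 receptors in either direction, an unadjusted p under 0.05 to 0 higher and 3 lower ones, and the median was 0.13. The 3 lower were Vmn2r53, Vmn2r51 and Vmn2r54, with edgeR unadjusted p of 0.00112, 0.00344 and 0.0163 and an adjusted p of 0.507 each. In the block fit Vmn2r55 was at -0.028 and Vmn2r26 at 0.14.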
